A study of Mus musculus with 68 samples.

Results

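Gprc5d and 6 transcription factors of the hair follicle, namely Msx2, Foxn1, Hoxc13, Dlx3, Lef1 and Gata3, were followed through skin papillomas of FVBBX mice. Members were taken by symbol, which gave 11 probesets of 45101 on the array. Of the 21561 probesets tested (12596 genes), 9 belonged to these 7 genes, and each gene kept at least 1. The 68 papillomas came from 37 mice, all backcross animals (a [SPRET/Ei X FVB/N] parent mated again to FVB/N), so that each mouse carried its own mix of FVB/N and SPRET/Ei alleles. All mice were 8 to 12 weeks old when the shaved back received 1 dose of the mutagen DMBA, and the promoter TPA followed 2 times a week for 20 weeks. From 31 mice 2 papillomas, and from 6 mice 1 papilloma, were each hybridized to an Affymetrix array. Susceptible mice carried 9 to 35 papillomas at 20 weeks (12 mice, 22 arrays), intermediate mice 2 to 7 (19 mice, 35 arrays) and resistant mice 0 or 1 (6 mice, 11 arrays). The mice were 21 females and 16 males, 17 agouti and 20 white, and started treatment in 7 cohorts. The labels also give days alive and the week of the first papilloma, which differed between mice and entered no fit reported here. In some resistant mice the first papilloma came later than in any susceptible mouse. No untreated group or normal skin was used here.

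Hair is built by matrix cells at the base of the follicle, which leave the cell cycle and fill with hair keratins and keratin-associated proteins. Lef1 transmits Wnt signals in the matrix and in its precursors, and Msx2, Foxn1, Dlx3 and Hoxc13 act in matrix and shaft cells, where Hoxc13 and Foxn1 are known to drive hair keratin genes. Gata3 is a factor of the inner root sheath and also of T cells. Foxn1 and Dlx3 are further active in differentiating epidermis, in the layers that make the cornified barrier. Gprc5d encodes an orphan receptor of the G protein-coupled class C family that is known in hard keratinizing tissue.

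The promoters of Gprc5d, Msx2 and Foxn1 are shown because these 3 genes span the groupings described below. RefSeq promoter windows of GRCm38.p6 were found for 5 of the 7 genes. Each sequence gives the 250 bases before the start of the gene, 5′ to 3′ on its minus strand, and capitals mark the searched letters.
Gprc5d, chr6:135118284-135118533: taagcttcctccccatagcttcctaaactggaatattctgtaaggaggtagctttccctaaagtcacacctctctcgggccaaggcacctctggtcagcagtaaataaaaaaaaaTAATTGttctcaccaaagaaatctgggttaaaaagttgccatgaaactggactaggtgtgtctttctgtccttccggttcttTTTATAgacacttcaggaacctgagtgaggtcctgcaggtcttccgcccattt
Msx2, chr13:53472781-53473030: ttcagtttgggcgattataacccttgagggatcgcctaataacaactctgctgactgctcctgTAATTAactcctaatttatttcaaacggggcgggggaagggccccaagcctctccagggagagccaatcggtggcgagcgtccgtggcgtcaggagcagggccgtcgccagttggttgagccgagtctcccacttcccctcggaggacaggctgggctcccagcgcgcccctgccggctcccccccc
Foxn1, chr11:78386609-78386858: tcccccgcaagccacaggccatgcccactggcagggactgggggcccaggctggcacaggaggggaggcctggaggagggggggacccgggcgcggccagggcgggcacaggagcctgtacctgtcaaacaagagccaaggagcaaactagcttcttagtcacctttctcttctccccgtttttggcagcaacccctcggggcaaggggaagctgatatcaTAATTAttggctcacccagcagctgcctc

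The letters searched on both strands were TAATTG and TAATTA for Msx and Dlx factors, CTTTGAA and CTTTGAT for Lef1 and other Tcf factors, AGATAA and TGATAA for Gata factors, CAATAAA for Hox13 factors and TATAAA for the TATA box. No 2 matches overlapped in the windows printed. The Gprc5d window held TAATTG, which occurred in 7.17% of all 32851 windows of that length, and TATAAA on the opposite strand, which occurred in 12.4%. Msx2 and Foxn1 each held TAATTA, present in 4.84% of windows. The Gata3 window held none of the 8 motifs, and among the 4 windows of Lef1 only 1 did, with TGATAA and TATAAA. A match is a run of letters, not a measured binding site.

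Levels are RMA log2 values, so that 1 unit is a doubling of signal, and papillomas of 1 mouse were averaged. Where a gene had more than 1 probeset, the probeset of highest mean led. Arrays had nearly equal medians (5.19 to 5.29), and the number of arrays limits the precision. The 12 basal epidermal genes averaged 9.75 to 11.2 over the mice. In 8 arrays of 6 mice (1 susceptible, 4 intermediate and 1 resistant) Xist or Eif2s3y went against the labelled sex, and results were recomputed without these mice. Papillomas hold several cell types, and fewer cells of a type cannot be told apart from less RNA per cell.

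The mean of Gprc5d was 6.00 ± 0.76 (SD, n = 37), and 60 of 68 arrays had it above their own median. Its mouse means ran from 5.08 over a median of 5.80 to 8.24, with 4 mice above 7. These were intermediate mouse 5, with 8.81 and 7.67 in its 2 profiled papillomas, intermediate mouse 19, with 7.52 in 1 papilloma, intermediate mouse 24, with 8.40 and 6.49, and susceptible mouse 28, with 6.61 and 8.02. The distribution thus had a long upper tail of few mice. The highest resistant mouse, mouse 35, had 6.99, just under 7.

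Hoxc13 averaged 5.74 ± 0.51 (SD, n = 37) and ran from 5.03 to 6.94, above the array median in 59 arrays. Its 4 highest mice were mouse 24 at 6.94, mouse 5 at 6.79, mouse 19 at 6.73 and mouse 28 at 6.67, the same 4 mice that led for Gprc5d. Msx2 averaged 6.36 ± 0.44 (SD, n = 37), from 5.61 to 7.23, and was led by mice 5, 19 and 24 at 7.23, 7.16 and 7.15. Its other probeset lay below the median in all 68 arrays and was not tested.

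Foxn1 averaged 5.83 ± 0.62 (SD, n = 37) and ran from 4.82 to 7.33. Its highest mouse, intermediate mouse 15 with 7.59 and 7.07 in its 2 profiled papillomas, was not among the 10 highest for Gprc5d. Dlx3 averaged 6.84 ± 0.61 (SD, n = 37), from 5.81 to 7.84, and its 3 highest mice were the susceptible mice 9, 18 and 12 at 7.84, 7.82 and 7.80. The 10 highest mice of these 5 genes overlapped to unlike degrees. Gprc5d and Hoxc13 shared 8 of them, as did Msx2 and Dlx3, and Hoxc13 and Dlx3 shared 7. Foxn1 shared 6 with Dlx3, 6 with Hoxc13 and 4 with Gprc5d, and Gprc5d shared 6 with Dlx3. Lef1 also shared 4 with Gprc5d and 4 with Foxn1, and Gata3 shared 3 and 4, so a count of 4 does not stand out.

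Gata3 averaged 7.24 ± 0.66 (SD, n = 37) and had a wide range, from 5.77 in resistant mouse 34 to 8.86 in intermediate mouse 27. Lef1 stayed close to the array median, at 5.22 ± 0.15 (SD, n = 37) with a range of 4.87 to 5.53. Only 28 of 68 arrays had it above their median, and its other probeset was below it in all 68. It thus lay near the median of all probesets, which served here as the limit for low values. Whether its signal stood above background was not tested, and the absence of Lef1 calls below carries that limit.

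**Figure D1:**
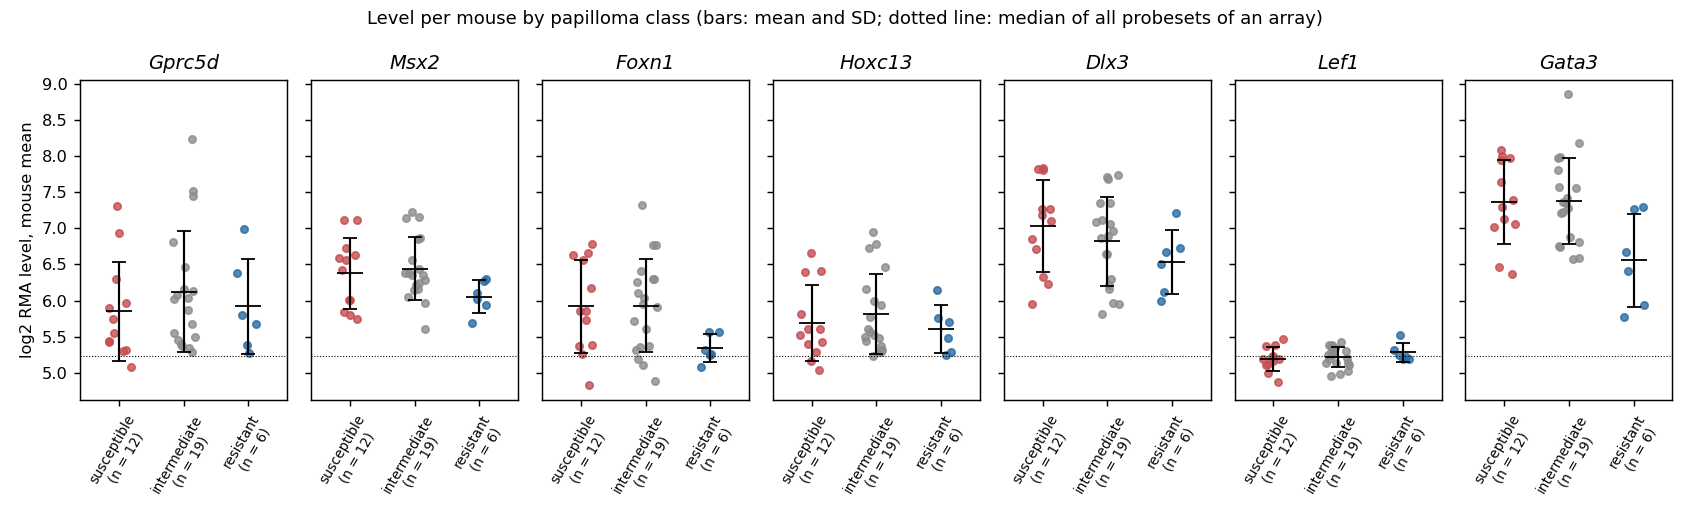
Log2 level of the lead probeset of each gene (y axis) in susceptible (n = 12), intermediate (n = 19) and resistant (n = 6) mice, 1 point per mouse, with mean and SD as bars and the typical array median of 5.23 as a dotted line. Gprc5d has a tail of 4 mice above 7, Lef1 stays near the dotted line, and the classes overlap for every gene.

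Which of these genes varied together from mouse to mouse was asked by regressing every tested probeset on each lead probeset with limma, and a pair was called where the larger of its 2 adjusted p-values (Benjamini-Hochberg over all tested probesets) was under 0.05. Of the 21 pairs 7 were called. The highest correlations joined Gprc5d with Hoxc13 and Foxn1 with Dlx3, and Msx2 was called with all 4 of these genes. Neither Lef1 nor Gata3 was called with any of the other genes. The share of all tested probesets called was 0.376% for Gprc5d, 0.881% for Hoxc13, 1.70% for Msx2, 4.06% for Gata3, 17.4% for Dlx3 and 29.2% for Foxn1, so that a call with Foxn1 or Dlx3 was far less rare than a call with Gprc5d. For Lef1 the share was 0%, with 656 of 21560 probesets at an unadjusted limma p under 0.05.

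Gprc5d and Hoxc13 had r = 0.797 (95% interval 0.638 to 0.891) and rho = 0.624 over the 37 mice. The permutation p was 1e-05 for r, the smallest that 100000 permutations can give, and 0.0001 for rho, and the limma adjusted p was 9.4e-07. When the 2 mice most distant from the median of Gprc5d were left out, r was 0.729 (permutation p = 1e-05). Within the 3 cohorts of 6 or more mice r was 0.907, 0.805 and 0.820 (exact permutation p = 0.0486, 0.0885 and 0.00484). By ranks the correlation (Spearman) was 0.486, 0.0476 and 0.80 there (exact permutation p = 0.356, 0.935 and 0.0138). In the cohort of 8 mice only mouse 5 stood far above the rest, at 8.24 for Gprc5d and 6.79 for Hoxc13. The next in Gprc5d, mouse 7, had 6.38 and 5.48. In the cohort of 6 mice, mouse 28 led with 7.32 and 6.67, before mouse 1 with 5.96 and 5.81. The r of each of these cohorts thus leaned on a single distant mouse. Hoxc13 ranked 57th among the 12595 other genes by r with Gprc5d, and Gprc5d ranked 20th by r with Hoxc13.

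Foxn1 and Dlx3 had r = 0.782 (95% interval 0.613 to 0.882) and rho = 0.776 (permutation p = 1e-05 for both; limma adjusted p = 3.6e-06). Without the 2 mice farthest from the Foxn1 median r was 0.749 (permutation p = 1e-05). Within the cohorts of 6, 8 and 9 mice r was 0.682, 0.617 and 0.887 (exact permutation p = 0.139, 0.106 and 0.00246), with rho of 0.600, 0.548 and 0.733 (exact permutation p = 0.242, 0.171 and 0.0311). The second tested probesets of both genes gave r = 0.596 (limma adjusted p = 0.00331).

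Between these 2 pairs the correlations were lower. Gprc5d had r = 0.302 with Foxn1 (95% interval -0.0241 to 0.570; rho = 0.372; permutation p = 0.0698 and 0.0246; limma adjusted p = 0.761) and r = 0.439 with Dlx3 (rho = 0.435; permutation p = 0.00634 and 0.008; limma adjusted p = 0.386). Hoxc13 had r = 0.554 with Dlx3 (rho = 0.494; permutation p = 0.00034 and 0.00214; limma adjusted p = 0.0366) and r = 0.531 with Foxn1 (rho = 0.518; permutation p = 0.0006 and 0.00127), which just missed (limma adjusted p = 0.0512). The 21 intervals are wide at 37 mice, and a pair that missed the threshold is not shown to be unrelated.

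Msx2 had r = 0.658 with Gprc5d (rho = 0.623; permutation p = 1e-05 and 0.0001; limma adjusted p = 0.00751), 0.608 with Hoxc13 (rho = 0.500; permutation p = 7e-05 and 0.00193; limma adjusted p = 0.0146), 0.600 with Dlx3 (rho = 0.533; permutation p = 0.00013 and 0.00072; limma adjusted p = 0.0174) and 0.543 with Foxn1 (rho = 0.534; permutation p = 0.0006 and 0.00087; limma adjusted p = 0.0390). These 4 calls and that of Hoxc13 with Dlx3 were lost under some alternatives. Without the 2 farthest mice, with sex and start cohort as covariates, or on ranks, 2 of the 7 pairs passed each time, and 3 passed with the 3′ to 5′ signal ratios of the control genes Actb and Gapdh as covariates. The correlations themselves moved less: with the 2 farthest mice of either gene left out, r was 0.559 and 0.623 for Msx2 with Dlx3, 0.517 and 0.618 for Msx2 with Foxn1, 0.496 and 0.518 for Hoxc13 with Dlx3, 0.496 and 0.486 for Msx2 with Hoxc13 and 0.541 both times for Msx2 with Gprc5d. Gprc5d with Hoxc13 and Foxn1 with Dlx3 passed under all alternatives run. Over mice, Msx2 had r = -0.391 with the Gapdh ratio and Gprc5d -0.342, and the part of RNA quality in their relation was not tested beyond that covariate fit.

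**Figure D2:**
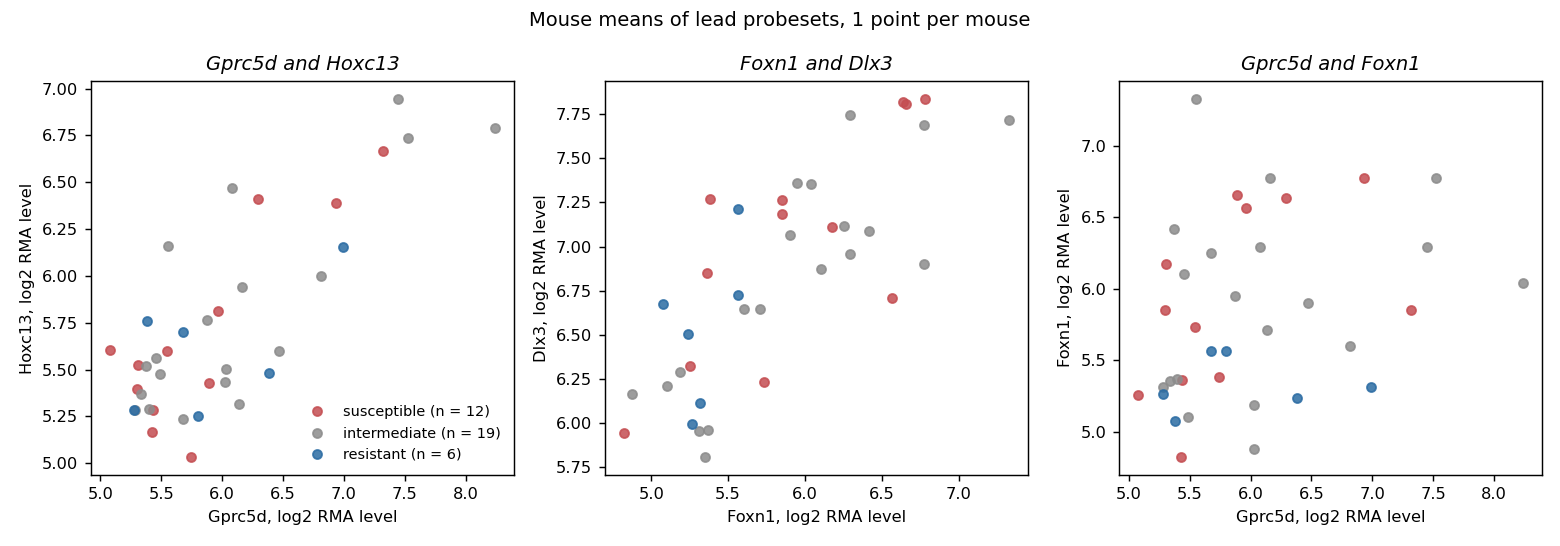
Mouse means (log2) of Hoxc13 against Gprc5d, Dlx3 against Foxn1 and Foxn1 against Gprc5d in 37 mice, with a point for each mouse and a color for each class. Points rise for Hoxc13 against Gprc5d (r = 0.797) and for Dlx3 against Foxn1 (r = 0.782), and are spread wide for Foxn1 against Gprc5d (r = 0.302).

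The genes most like Gprc5d and Hoxc13 by r over the 37 mice were unlike those most like Foxn1 and Dlx3. For Hoxc13 the 4 nearest were Krtap28-13 (r = 0.854), Krt81 (0.853), Krtap3-1 (0.852) and Krt32 (0.850), all structural genes of the hair shaft. For Gprc5d they were Gm11567 (0.973), Krtap13-1 (0.969), Krt72 (0.967) and Krt31 (0.966). Its lowest r fell on Ngp, a granule gene of neutrophils (-0.570), BC035044 (-0.565) and Nr4a3 (-0.562, which did not pass).

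For Foxn1 the nearest genes were Klhl18 (r = 0.875), Grhl3, a factor of epidermal barrier formation (0.871), Map3k9 (0.870) and Srms (0.868). For Dlx3 they were Sp6 (0.878), Map3k9 (0.847), Aloxe3, an epidermal lipoxygenase of the lipid barrier (0.846), and Cnst (0.843). Map3k9 stood among the 4 nearest of both. Msx2 had no neighbor above 0.70, with Mcur1 (0.698), Krtap5-1 (0.678), Krt32 (0.678) and Gsdma2 (0.672) nearest. Gata3 was nearest to Cxadr (0.848), Sgpp1 (0.811), Ggct (0.790) and Cebpa (0.786). The 4 genes nearest to Lef1, Fahd2a, Cadm3, Lao1 and Gfra3, had r of 0.545 to 0.586 and did not pass (limma adjusted p = 1.00 for each).

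Hair and barrier gene lists showed a division between Gprc5d with Hoxc13 and Foxn1 with Dlx3, gene by gene. Of 48 tested hair genes (11 shaft keratins, 7 inner root sheath keratins and 30 keratin-associated proteins), 47 were called with Hoxc13, all with positive r, at a median r of 0.770. That count was 47 for Gprc5d (median r = 0.939), 37 for Msx2 (0.545), 11 for Dlx3 (0.363), 5 for Foxn1 (0.242) and 0 for both Gata3 (0.137) and Lef1 (0.171). Beside this, 0.376%, 0.881% and 1.70% of all probesets were called with Gprc5d, Hoxc13 and Msx2. For Dlx3, Foxn1, Gata3 and Lef1 the shares were 17.4%, 29.2%, 4.06% and 0%, and their hair counts lay near or under these. Over all tested genes the median r with Gprc5d was 0.0028. Krt84 was the 1 shaft keratin not called with Gprc5d (r = 0.344, limma adjusted p = 0.671), Msx2 (0.425, adjusted p = 0.115) or Hoxc13 (0.486, adjusted p = 0.0915), and it had the highest r of the hair genes with Foxn1 (0.656, limma adjusted p = 0.000176). The counts for Gprc5d and Hoxc13 stayed at 46 or more under 7 alternatives, whereas that for Msx2 fell to 0 without its 2 farthest mice (median r = 0.404) and to 0 with the control ratios (0.466).

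Of 30 genes of the cornified barrier, 27 were called with Foxn1 (median r = 0.574) and 22 with Dlx3 (0.510), all positive. Calls numbered 4 with Gata3, 2 with Msx2 and 0 with Gprc5d (median r = 0.262), Hoxc13 (0.266) and Lef1 (-0.0091). The shares of all probesets called were 29.2% for Foxn1, 17.4% for Dlx3, 4.06% for Gata3 and 1.70% for Msx2. For Gprc5d, Hoxc13 and Lef1 the shares were 0.376%, 0.881% and 0%, so the absence of calls does not set barrier genes apart there. For Foxn1 the 3 highest were Tgm3, a crosslinking transglutaminase (0.863), Dsg1a, a desmoglein (0.807), and Aloxe3 (0.793), and for Dlx3 they were Aloxe3 (0.846), Alox12b, the partner lipoxygenase (0.771), and Tgm3 (0.734). The 4 barrier genes called with Gata3 included Krt77 (r = 0.656), Ivl, which encodes involucrin (0.642), and Klk5 (0.634). Without the mice of doubtful sex the counts were 23 for Foxn1 and 11 for Dlx3, and with the control ratios 25 and 13.

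Fibroblast genes had r of the opposite sign with Foxn1. Of 12 fibroblast genes, whose mean level ran from 9.56 to 11.5 over the mice, 7 were called with Foxn1 and 1 with Dlx3, all negative, with Pdgfra at -0.571 and Fap at -0.564 for Foxn1. Of 10 endothelial genes 4 were called with Foxn1, negative too. The endothelial count for Foxn1 and the fibroblast count for Dlx3 do not stand out from the 29.2% and 17.4% of all probesets called. No fibroblast gene was called with Gprc5d, Hoxc13, Msx2, Gata3 or Lef1. Of all probesets only 0.376%, 0.881%, 1.70%, 4.06% and 0% were, so the absence of calls does not set fibroblast genes apart there. Without the mice of doubtful sex 0 of the 12 passed for Foxn1 (median r = -0.238). The part of the share of stroma in the Foxn1 and Dlx3 relations was not tested.

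Among 47 other follicle genes, 4 were called with each of Gprc5d, Hoxc13 and Msx2, beside 0.376%, 0.881% and 1.70% of all probesets. With Gprc5d the highest r were those of Tchhl1 (0.892), Tchh (0.799) and S100a3 (0.768). Tchhl1 and Tchh, of the trichohyalin family of the inner root sheath, had r of 0.834 and 0.623 with Hoxc13, and Shh, the signal secreted by the matrix, had 0.727. Gli1, a target of hedgehog signaling, had 0.633 with Msx2 and 0.653 with Gprc5d. Foxn1 was called with 8 genes of this list, led by Ovol1 (0.844), and Dlx3 with 9 positive, led by Ovol1 too (0.670), and 1 negative. Beside the 29.2% and 17.4% of all probesets called with Foxn1 and Dlx3, these 2 counts do not set the follicle list apart. Gata3 was called with 2 positive, Egr2 (0.711) and Axin2 (0.554), and 4 negative, with Wnt10b at -0.554, beside 4.06% of all probesets. The other 3 Gprc5 genes on the array did not follow Gprc5d, with r of -0.165 for Gprc5a, -0.125 for Gprc5b and -0.232 for Gprc5c (limma adjusted p = 0.885, 0.914 and 0.843).

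**Figure D3:**
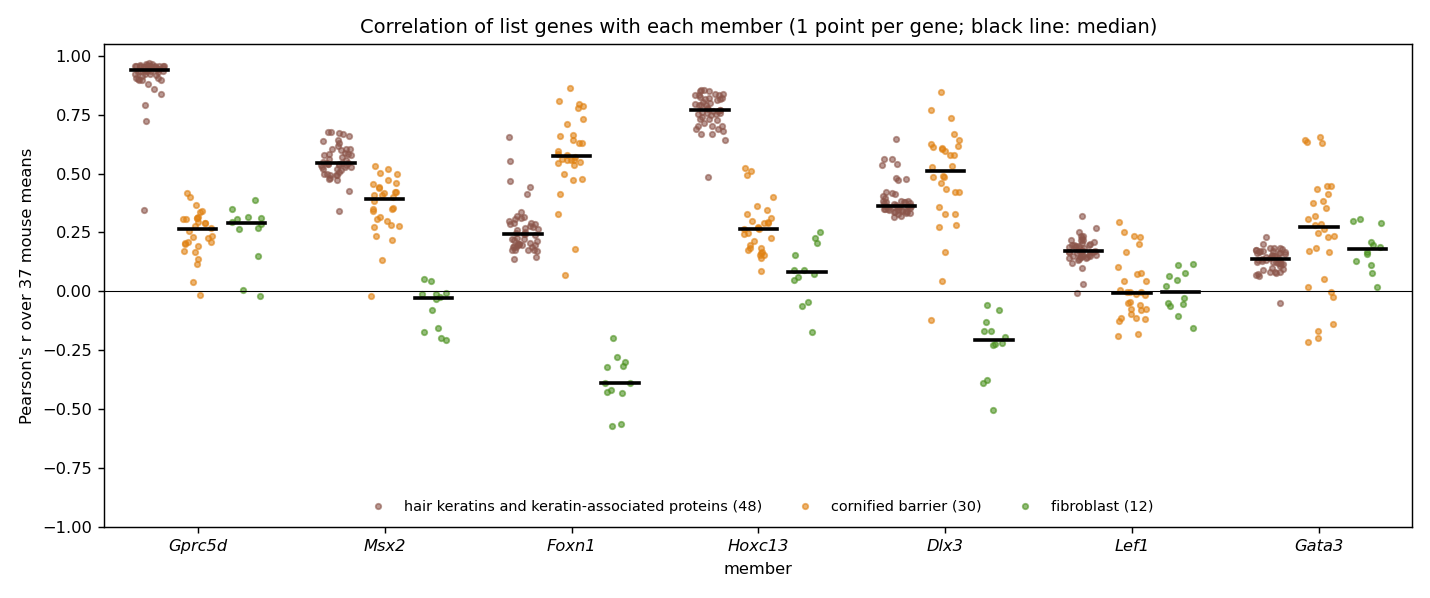
Pearson's r over 37 mouse means (y axis) of each hair gene (48), cornified barrier gene (30) and fibroblast gene (12) with each of the 7 genes (x axis), 1 point per gene and the median as a black line. Hair genes lie highest for Gprc5d and Hoxc13 (medians 0.939 and 0.770), barrier genes for Foxn1 and Dlx3 (0.574 and 0.510).

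Every probeset was also fitted on Gprc5d and Foxn1 together, in SD per SD, and the 2 slopes were compared. Both genes were picked after the correlations were seen, in the same mice and on the same lists, so the fit describes the division and is no independent evidence of it. The slopes differed for 12.8% of 21558 probesets. They differed for 9 of 11 shaft keratins, 7 of 7 sheath keratins and 30 of 30 keratin-associated proteins, each with the higher slope on Gprc5d (median differences 0.98, 1.03 and 1.01). The slope on Foxn1 was the higher for 10 of 30 barrier genes (median difference -0.50), but for 1 without the mice of doubtful sex. Among the factors, Dlx3 had the higher slope on Foxn1 (difference -0.49, limma adjusted p = 0.0451), and Hoxc13 had slopes of 0.70 on Gprc5d and 0.32 on Foxn1 whose difference did not pass (limma adjusted p = 0.0839). Msx2 had slopes of 0.54 and 0.38 (limma adjusted p = 0.599 for the difference).

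Whether the 2 profiled papillomas of 1 mouse were alike was asked in the 31 mice with 2 arrays. The intraclass correlation, the share of variance that lay between mice, passed for 5 of the 7 genes (F test, Benjamini-Hochberg), against 71.0% of all tested probesets. It was 0.585 for Dlx3, 0.507 for Foxn1, 0.456 for Gprc5d, 0.389 for Msx2 and 0.344 for Hoxc13, with F test adjusted p of 0.000895, 0.00387, 0.00872, 0.0221 and 0.0382. Lef1 and Gata3 had 0.281 and 0.253 (F test adjusted p = 0.0749 and 0.0976). The median over all tested probesets was 0.435, so these genes stood on both sides of it. Gata3 passed (0.369, F test adjusted p = 0.0332) and Msx2 did not (0.284, F test adjusted p = 0.0802) once the control ratios were removed, and Hoxc13 did not without the filter on low values (F test adjusted p = 0.0526).

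Single mice held very unlike papillomas. In susceptible mouse 9, Gprc5d was 5.63 in 1 papilloma and 8.23 in the other, and Gata3 was 5.88 and 8.39. In intermediate mouse 24, Hoxc13 was 5.93 and 7.96 and Msx2 6.49 and 7.81. In resistant mouse 10, Foxn1 was 4.26 and 6.26 and Dlx3 5.05 and 6.94. The typical gap was far smaller, with a median of 0.29 for Gprc5d and 0.23 for Dlx3 over the 31 pairs, and 11 pairs differed by more than 1 in Gprc5d.

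**Figure D4:**
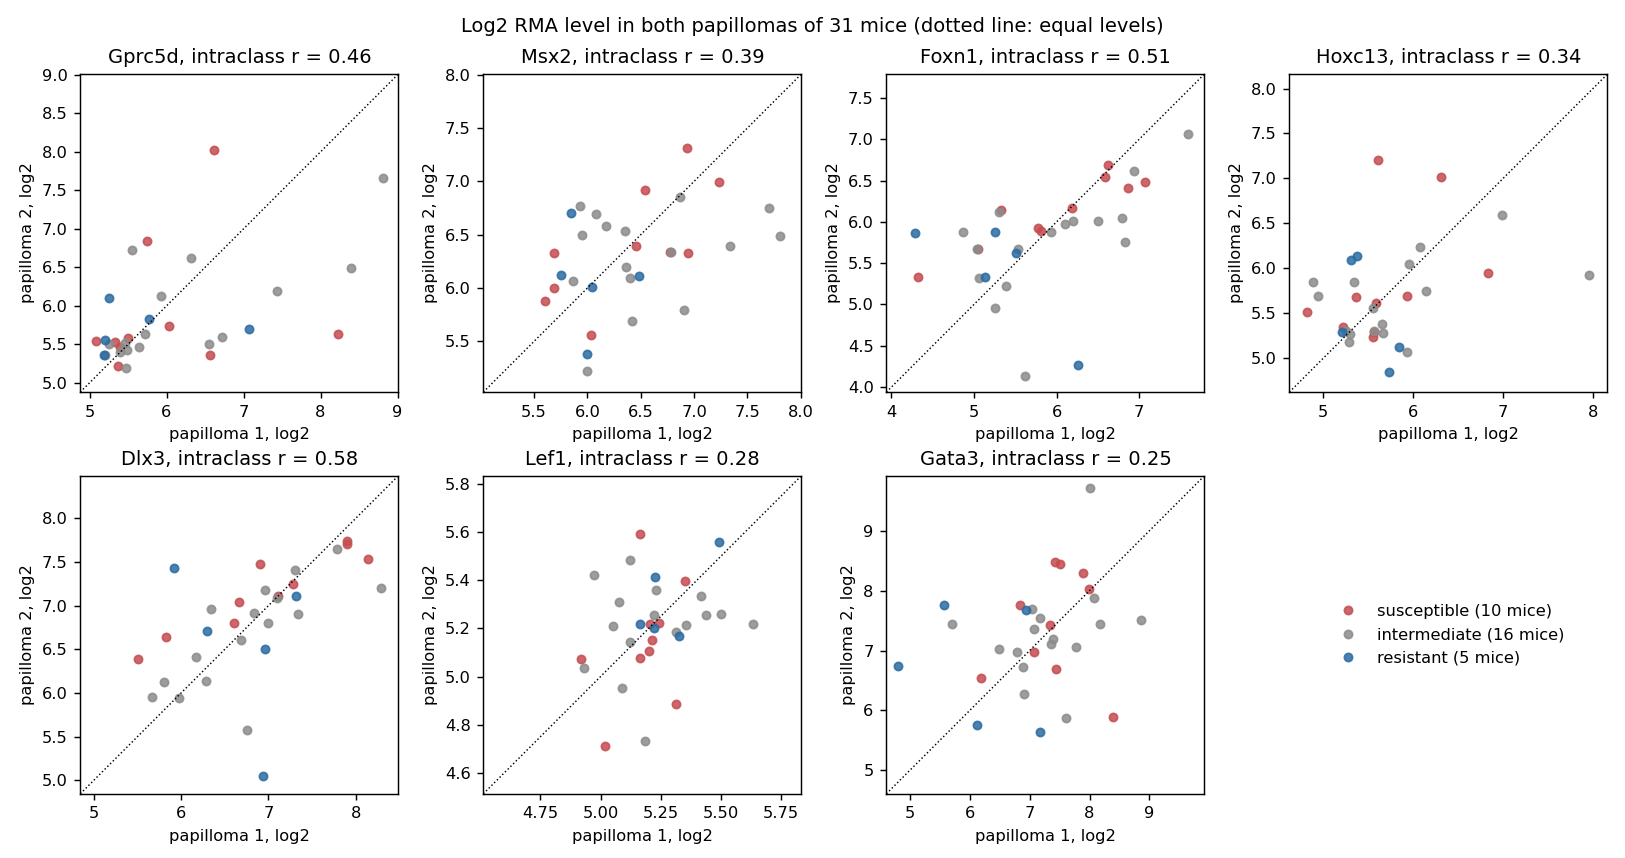
Log2 level in papilloma 1 (x axis) and papilloma 2 (y axis) of 31 mice for each gene, colored by class, with the line of equal levels dotted and the intraclass correlation above each plot. Lef1 has the smallest within-mouse SD (0.158) and Gata3 the largest (0.750), while the share of variance between mice is highest for Dlx3 (0.585).

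The same 2 pairs stood out between papillomas of 1 mouse, where the alleles inherited were the same. Over the 31 differences Foxn1 and Dlx3 had r = 0.885 and rho = 0.765 (permutation p by swapping papillomas = 0.0003 and 0.00019; limma adjusted p = 4.5e-08), with the same sign in 22 of 31 mice. Gprc5d and Hoxc13 had r = 0.715 and rho = 0.647 (permutation p = 0.00066 and 0.00122; limma adjusted p = 0.00155), also with the same sign in 22. Without the 2 mice of largest difference r was 0.801 and 0.628. The differences in Gprc5d and Hoxc13 had r of 0.352 and 0.365 with those in the Actb ratio, and the pair was also called with the control ratios as covariates. These were the 2 pairs called of 21. The share of all probesets called was 0.496% for Gprc5d, 0.881% for Hoxc13, 0.0557% for Msx2, 15.6% for Gata3, 24.1% for Dlx3 and 27.1% for Foxn1. For Lef1 it was 0% (1289 probesets at an unadjusted limma p under 0.05), and its r of 0.646 with Hoxc13 did not pass (permutation p = 0.0037; limma adjusted p = 0.214).

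Within mice the lists divided much as over mice for Gprc5d, Hoxc13, Foxn1 and Dlx3. Hair genes were called with Gprc5d in 46 of 48 cases (median r = 0.879) and with Hoxc13 in 43 (0.694), and barrier genes with Foxn1 in 27 of 30 (0.627) and with Dlx3 in 25 (0.646). Fibroblast genes were negative for both, 11 of 12 with Foxn1 and 12 with Dlx3, but 3 and 1 without the 2 mice of largest difference, when 21 and 16 barrier genes remained called. Msx2 was called with 7 hair genes, led by Krt32 (r = 0.742), although its median r was 0.567. Foxn1 was called with 4 hair genes (median r = 0.291) and Dlx3 with 2 (0.200). The barrier gene of highest r with Gprc5d and with Hoxc13 was Lce1m. It did not pass with Gprc5d (0.444, limma adjusted p = 0.281) and was called with Hoxc13 (0.608, limma adjusted p = 0.0206). Hair genes with Gata3 and Lef1, which did not keep to the division over mice, are given below.

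Gata3 differed in its calls between the 2 views. Over mice it was called with 0 of 48 hair genes (limma), and between papillomas of 1 mouse with 40 (median r = 0.507), among them Krt73 (0.571), Krtap17-1 (0.572) and Krt35 (0.553). With the first papilloma of each mouse alone, 2 were called over mice at a median r of 0.388, against 0.137 for mouse means. The difference between the 2 correlations was not tested. The 40 calls rested on 2 mice: without the 2 of largest Gata3 difference, mice 9 and 37, 0 of 48 passed (median r = 0.343), and with the control ratios 13 did. Gata3 differences had r = 0.509 with those in the Gapdh ratio. A higher r between papillomas was not particular to Gata3. Lef1 was called with 0 of 48 hair genes in both views, but its median r was 0.171 over mice and 0.553 between papillomas. Without the 2 mice of largest Lef1 difference its median r was 0.584. Of 9 T cell genes 4 were called positive with Gata3 between papillomas, among them Il7r (0.661), Cd3g (0.630) and Cd3d (0.523), and 1 negative. The share of all probesets called there was 15.6%. Over mice 0 of 9 were called, beside 4.06% of all probesets, so that absence does not set T cell genes apart. No alternative is given here for the T cell calls, such as leaving out mice 9 and 37. The mean level of the T cell genes ran from 6.37 to 7.94 in susceptible, 6.11 to 7.26 in intermediate and 6.11 to 7.10 in resistant mice, and their part in the Gata3 values was not tested.

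**Figure D5:**
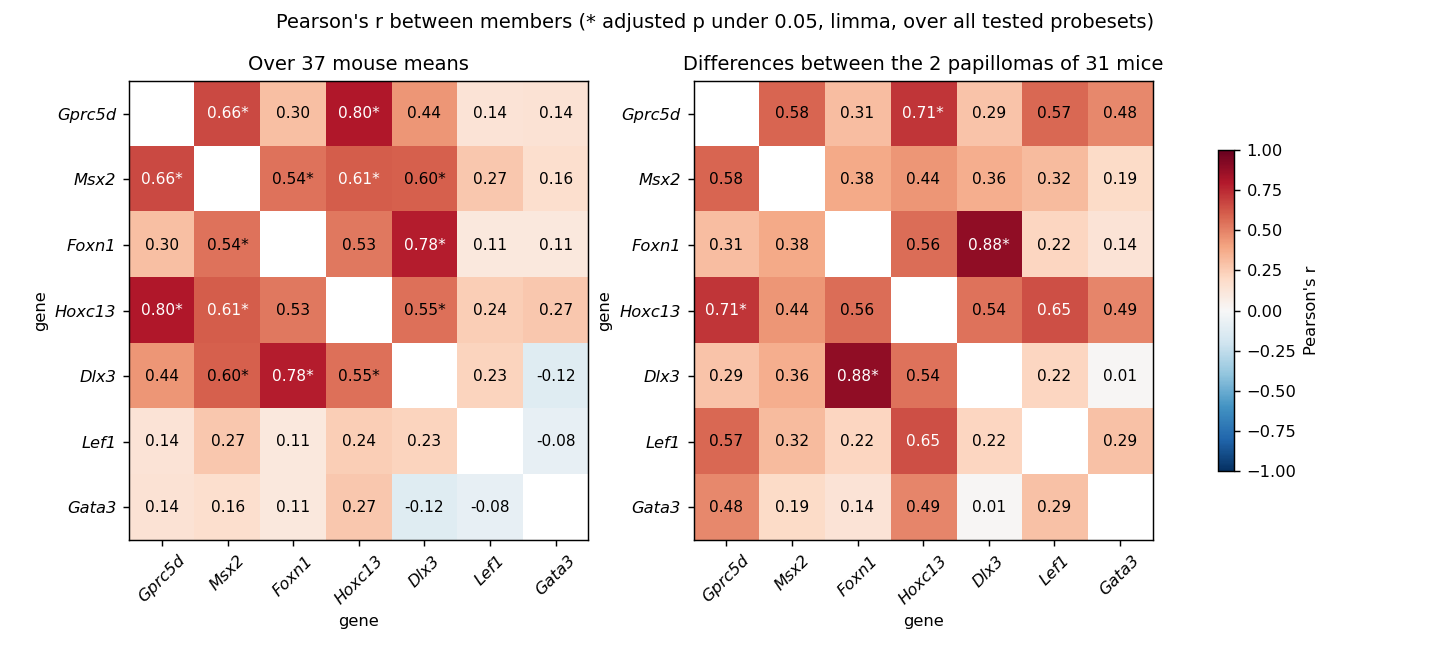
Pearson's r between the 7 genes over 37 mouse means (left) and over the differences between papillomas of 31 mice (right), with the color scale from -1 to 1 and an asterisk at a limma adjusted p under 0.05. Gprc5d with Hoxc13 (0.797 and 0.715) and Foxn1 with Dlx3 (0.782 and 0.885) carry an asterisk in both panels.

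No gene of the 7 was called between susceptible and resistant mice with limma, where 0.0510% of all tested probesets (11) were. At an unadjusted limma p under 0.05 stood Gata3 and Foxn1. Gata3 had a lowest, median and highest level of 6.36, 7.34 and 8.09 in the 12 susceptible mice and of 5.77, 6.54 and 7.30 in the 6 resistant mice. Thus 6 susceptible mice lay above all resistant mice and none below. The difference was 0.81 (SE 0.28; exact permutation p = 0.0180; limma adjusted p = 0.316), and 0.42 with start cohort as a block (limma adjusted p = 0.657; 0.219 to 0.657 over all alternatives).

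Foxn1 had 4.82, 5.85 and 6.78 in susceptible and 5.07, 5.29 and 5.57 in resistant mice, a narrow range in the latter. The difference was 0.59 (SE 0.26; exact permutation p = 0.0495; limma adjusted p = 0.466). By the second Foxn1 probeset it was 0.11 (SE 0.15; exact permutation p = 0.465). Dlx3 differed by 0.49 (SE 0.27; exact permutation p = 0.110; limma adjusted p = 0.597), by 0.20 with the control ratios as covariates and by 0.80 with start cohort as a block (limma adjusted p = 0.882 and 0.506). Of the 30 barrier genes 29 had a higher mean in susceptible mice (median difference 1.08), but 1 was called. The mean was higher in susceptible mice for 6828 of all 12596 genes tested, and for 2 of 11 shaft keratins (median difference -0.26), 1 of 7 sheath keratins (-0.50), 5 of 30 keratin-associated proteins (-0.33) and 0 of 12 basal epidermal genes (-0.28), of which none was called. Gprc5d differed by -0.07 (SE 0.32; exact permutation p = 0.848), Hoxc13 by 0.09 (SE 0.22; 0.716), Msx2 by 0.32 (SE 0.20; 0.147) and Lef1 by -0.09 (SE 0.09; 0.256), with overlapping ranges. In the 4 cages that held a susceptible and a resistant mouse, Foxn1 and Dlx3 were higher in the susceptible mouse in 4 of 4 (mean differences 0.50 and 0.47), Gata3 and Msx2 in 3 (0.61 and 0.23), Hoxc13 in 3 (-0.06), Gprc5d in 2 (-0.24) and Lef1 in 1 (-0.14). An exact two-sided test of 4 pairs cannot go below p = 0.125, so none was made.

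Coat, sex and papilloma number gave 0 calls among the 7 genes (limma, with 0.0742%, 0.0649% and 0.00464% of all tested probesets called). Gata3 averaged 6.98 in agouti and 7.46 in white mice (agouti minus white -0.48 with the covariates, SE 0.20; limma adjusted p = 0.592), and Foxn1 had -0.38 (SE 0.18; limma adjusted p = 0.622). Foxn1 was 5.64 in females and 6.08 in males (female minus male -0.46, SE 0.18; limma adjusted p = 0.243), and its second probeset had -0.26 (SE 0.11; limma adjusted p = 0.267). Sex here was the labelled sex, which Xist or Eif2s3y went against in 8 arrays of 6 mice. Gata3 and Foxn1 by coat and Foxn1 by sex had an unadjusted limma p under 0.05, and none did against papilloma number. There the highest correlation was that of Gata3, with r = 0.310 and rho = 0.291 over 37 mice (permutation p = 0.0616 and 0.0814; limma adjusted p = 0.462), and r without the 2 farthest mice was 0.242. Resistant mice were 5 agouti and 1 white, so that class and coat were partly confounded.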

How the data were processed

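The deposited values are log2 levels per probeset of the Affymetrix whole-genome mouse array, made by the authors with RMA per the submitters' processing notes (background correction, quantile normalization and a summary of each probe set). SPRET/Ei variants under a probe can change its signal, which was not tested. Symbols came from the array annotation and promoters from RefSeq (GRCm38.p6). Probesets with 1 symbol that lay above their array's median in at least 11 arrays were tested, and the replicate was the mouse. Regressions and contrasts were fitted with limma 3.58.1 (R 4.3.3) over all tested probesets and adjusted by Benjamini-Hochberg, and likeness within mice was tested with an F test. Permutation tests were two-sided, with 100000 draws, or exact for cohorts and for the 18564 splits into classes. Scripts were tested on simulated data. The text names all probesets of the 7 genes, the 4 genes of highest r with each, the 3 of lowest r with Gprc5d, up to 3 genes of largest absolute r per list, and the other Gprc5 genes. The members and lists were chosen with earlier results of these data known, and counts over the hair, barrier and fibroblast lists were added after the data were seen. Basal epidermal, sebaceous and striated muscle lists gave at most 2 calls with any of the 7 genes over mice. Alternatives covered the filter, centring, papilloma choice, covariates, ranks, single probesets and left-out mice.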

Additional observations from a re-analysis of the deposited data

How the results depend on the processing

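Gprc5d with Hoxc13 and Foxn1 with Dlx3 were called under every alternative run, over mice and between papillomas. Of the 7 pairs called over mice, 2 passed without the 2 farthest mice, 2 with sex and start cohort, 2 on ranks and 3 with the control ratios. Hair genes called with Msx2 over mice (37) numbered 24 without the filter, 0 without the 2 farthest mice, 4 with sex and start cohort and 0 with the control ratios, at median r of 0.545, 0.404, 0.548 and 0.466 against 0.545. With Foxn1 (5) they numbered 9 in first papillomas and 3 with sex and start cohort. With Dlx3 (11) they numbered 6 without the 2 farthest mice, 33 without mice of doubtful sex, 5 with sex and start cohort and 7 with the control ratios. Between papillomas, hair genes with Msx2 (7) numbered 3 with the control ratios, 0 without mice of doubtful sex and 1 without the 2 mice of largest difference, those with Foxn1 (4) 2 without mice of doubtful sex, those with Dlx3 (2) 1 without the 2 mice, and those with Gata3 (40) 13 with the control ratios and 0 without the 2 mice. Barrier genes with Dlx3 over mice (22) numbered 11 without mice of doubtful sex and 13 with the control ratios, and between papillomas (25) 16 without the 2 mice. Barrier genes with unlike slopes on Gprc5d and Foxn1 (10) numbered 1 without mice of doubtful sex. Fibroblast genes with Foxn1 over mice (7) numbered 2 without the 2 farthest mice, 0 without mice of doubtful sex and 3 with sex and start cohort, and those with Dlx3 (1) numbered 3 in first papillomas and 2 with the control ratios. Between papillomas they numbered 3 with Foxn1 (11) and 1 with Dlx3 (12) without the 2 mice of largest difference. Apart from the left-out mice, which also reduce the number of samples, the cause was not tested.

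Signs turned only for values that were never called. The r of Dlx3 with Gata3 was 0.0569 in first papillomas and 0.00646 without the 2 farthest mice, that of Lef1 with Gata3 0.0272 and 0.0827, and the r of Dlx3 with Gata3 between papillomas -0.00117 with the control ratios and -0.0891 without mice of doubtful sex. The class difference of Gprc5d was 0.014 with mouse as a random effect, 0.012 with start cohort as a block, 0.15 without mice of doubtful sex and -0.20 to 0.15 over 18 single mice left out, and that of Hoxc13 was -0.00016 to 0.20. The slope on papilloma number was 0.0056 for Hoxc13 without mice of doubtful sex and 0.0057 for Lef1 by papillomas at 24 weeks. No gene was called between classes with any mouse left out. By replicate number no paired analysis was possible because the labels' number counts the papillomas of 1 mouse and ties no mice of different classes; the report gives the 4 cages that held both classes, a match chosen after seeing the data. The number of mice, 6 of them resistant, limits what the class contrast can show.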
